A study of Mus musculus with 6 samples.

Results

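Transcript levels of 30 genes that act in the nucleolus or are known MYC targets were compared between mouse lymphoma cells deleted for the miR-17~92 microRNA cluster (del) and floxed cells that carried it (fl). The genes were taken by symbol from a list of nucleolar proteins, RNA polymerase I genes and MYC targets, which was drawn up with earlier results of these data known. All 30 were found by NCBI gene number among the 24885 rows of the count table. All 30 also passed the filter on low counts that left 10260 genes to test.

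All cells carried Eµ-Myc, a Myc transgene driven in the B lineage, together with Cre-ERT2 and floxed (fl/fl) alleles of miR-17~92. The del cells (genotype label del17-92) had been given 250 nM 4-OHT, the tamoxifen metabolite that activates this Cre, for 4 days and had then been subcloned. The fl cells (genotype label floxed) have no such treatment in the design text. All cells grew for 48 hours on irradiated Ink4a-null MEF feeder cells, and each group has 3 libraries of oligo-dT primed 3′ ends. The labels do not give the number of subclones or say whether the libraries of a group were separate cultures, so p-values measure the spread between these libraries, which may be technical. Deletion, 4-OHT and subcloning cannot be told apart here.

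Ribosome biogenesis starts in the nucleolus, where RNA polymerase I transcribes the ribosomal RNA precursor. Small nucleolar ribonucleoproteins (snoRNPs) modify this RNA, and large sets of assembly factors cut and fold it into the small and large subunits before export. MYC is known to raise transcription of many of these factors as well as of the ribosomal RNA itself, and enlarged nucleoli are a known trait of MYC-driven lymphoma cells.

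Libraries held 2121796 to 3738720 counts in del and 6554423 to 9580630 in fl, a mean depth 2.65 times higher in fl. A gene of the list had 18 to 60637 counts in a library. Levels are given as CPM, counts scaled to a common total with TMM-adjusted library sizes. They are not divided by transcript length and are therefore compared between groups, not between genes. The host transcript of the cluster, Mir17hg, was at 167, 152 and 206 CPM in del and 252, 263 and 262 CPM in fl. It was lower in every del library (log2 fold change -0.56 ± 0.15, adjusted p = 0.00844), but 3′ reads outside the deleted part do not check the deletion. The RefSeq span of Mir17hg (chr14:115044390-115046728, plus strand) starts past miR-17, miR-18a, miR-19a, miR-20a and miR-19b (115043684 to 115044380). It holds miR-92a (115044476 to 115044496) near its start. Where the reads and the ends of the deletion lie was not tested. Markers of B cells, the lineage that the labels give both groups, differed. Their sum was at 1216 to 1408 CPM in del and 51.1 to 59.2 CPM in fl, with 9 of 9 tested markers higher in del and none of the 10 at 0 in either group. The fl libraries thus held few transcripts of the labelled lineage, and every comparison of del with fl is also one of libraries high and low in B cell markers. Markers of other cell types differed too. Summed myeloid markers were at 2944 to 3762 CPM in del and 410 to 455 CPM in fl, with 6 of 8 tested higher, 2 lower and Mpo at 0 in both groups. T and NK cell markers summed to 99.5 to 121 CPM in del and 38.6 to 42.7 CPM in fl, with 1 of 3 tested higher and 2 lower. Cd3e and Ncr1 were at 0 in both groups, and Cd3g and Lck in del. Fibroblast markers summed to 7.11 to 16.6 CPM in del and 1.49 to 4.399 CPM in fl, with 1 of 2 tested higher. Lum was at 0 in both groups, Pdgfra and Postn in del, and Thy1 in fl. Of 3 genes known from epithelial or fetal liver cells and picked after their values were seen, Epcam averaged 0.18 CPM in del and 169.9 CPM in fl, Krt18 0.61 CPM in del and 214 CPM in fl, and Afp 0.34 CPM in del and 138 CPM in fl, each with 6 counts or fewer over the del libraries. These shifts accompany every difference given here, and their part in it was not tested. Fewer cells of a type and less RNA per cell cannot be told apart in bulk libraries. Myc itself averaged 423 ± 28.2 CPM in del and 468 ± 59.9 CPM in fl (SD, n = 3 each), a log2 fold change of -0.15 ± 0.15 (SE) that did not pass the test (adjusted p = 0.399). Its partner Max averaged 53.9 ± 6.23 CPM in del and 72.0 ± 12.2 CPM in fl, without overlap (log2 fold change -0.42 ± 0.16, adjusted p = 0.0477). This call was lost in 9 of 14 alternatives, among them without del replicate 2 or 3 or fl replicate 2 or 3, with adjusted p of 0.0172 to 0.644 over the 14.

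The E-box CACGTG is the DNA element that MYC binds with its partner MAX. It was looked for in promoter windows from 250 bases before to 50 after an annotated start of the gene (RefSeq, GRCm38.p6). The motif reads the same on both strands. Windows were at hand for 25 of the 30 genes, and 7 of these (28.0%) held it, against 12.4% of the 8313 tested genes with a window. Known MYC targets were chosen for the list, so this share describes the list and is not a result of these libraries. The difference was not tested. The windows of the 7 genes are shown because they place the element relative to the start, with the E-box in capitals on the strand of the gene.
Nop2: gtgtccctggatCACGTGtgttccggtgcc
Pes1: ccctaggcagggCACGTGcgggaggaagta
Mybbp1a: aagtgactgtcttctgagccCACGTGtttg
Apex1: gcgctccagaacCACGTGggggcggagccc
Ipo4: tgtcggagtctcCACGTGccgatcctcccc
Utp20: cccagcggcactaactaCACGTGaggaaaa
Wdr43: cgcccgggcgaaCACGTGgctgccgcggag

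The E-box began 60 bases before the start in Nop2 (chr6:125131811-125131840, plus strand) and 24 bases before it in Apex1 (chr14:50924913-50924942, plus strand), whose window held 3 E-boxes. In the other 5 genes it lay past the start, at base 3 in Pes1 (chr11:3963965-3963994, plus strand), 15 in Ipo4 (chr14:55635653-55635682, minus strand), 18 in Wdr43 (chr17:71616220-71616249, plus strand), 38 in Utp20 (chr10:88826765-88826794, minus strand) and 41 in Mybbp1a (chr11:72441347-72441376, plus strand). For Ipo4 (gene span 55625400 to 55635868) and Wdr43 (71616178 to 71659031) the start used lies inside the gene span, not at its outer end. Bop1, Fbl, Npm1, Rrp12 and Tcof1 had no entry. Of the 7 genes with the motif 2 were higher and 1 lower in del, and of the 18 without it 6 were higher and 4 lower. Among all tested genes, 32.6% of those with an E-box were higher and 31.1% lower, against 32.4% and 32.9% of those without. A match is a run of letters, not evidence of binding.

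The microRNAs of the deleted cluster fall into 4 seed families, and matches to their seeds (bases 2 to 8, in capitals) were looked for in the longest 3′ UTR of a coding transcript of each gene. That transcript need not be the one expressed. The seeds are shown beside the sites because loss of the cluster is what separates the groups by label.
miR-17-5p: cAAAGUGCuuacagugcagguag
miR-18a-5p: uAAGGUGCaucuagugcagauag
miR-19a-3p: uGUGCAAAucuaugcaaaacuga
miR-92a-3p: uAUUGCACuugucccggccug
Ncl, miR-92a site: caaacagtacaGTGCAATctgaaatgacct
Ncl, miR-17/20a site: ctgctttttggGCACTTTcttgggtgctag
Nop58, miR-17/20a site: gtttatctgttGCACTTTtcatgtctgttt
Polr1a, miR-18a site: aagctgcctgtGCACCTTtcagagttcctc
Tfrc, miR-19a/b site: atactggaagtTTTGCACttatggtcagca

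Of the 30 genes 4 (13.3%) held a site of any family, against 33.9% of the 9854 tested genes with such a UTR. Ncl had the miR-92a site at chr1:86350171-86350200 (minus strand) and the miR-17/20a site at chr1:86346306-86346335 (minus strand). Both lie well inside the RefSeq gene span (86344719 to 86359455), at bases 431 and 4296 of an annotated UTR of 5901 nucleotides. The sites are as far apart in the genome as in that UTR, so no intron is removed between them. Whether the Ncl transcripts of these cells hold either site was not tested. Nop58 had 2 miR-17/20a sites, of which that at chr1:59713591-59713620 (plus strand) is printed. The Polr1a site lies at chr6:71980802-71980831 and the Tfrc site at chr16:32631308-32631337, both on the plus strand of GRCm38. The Polr1a site and both Nop58 sites lie past the ends of the RefSeq gene spans (71979435 and 59711510). They were found in GENCODE transcripts that run further. Ncl, Polr1a and Tfrc were higher in del and Nop58 was not called. Of the 26 genes without a site 6 were higher and 6 lower. Among all tested genes with a site 43.6% were higher and 22.6% lower, and among those without one 27.5% were higher and 37.3% lower. Transcript length also split the tested genes. Of those of at least 3000 nucleotides 43.8% were higher and 20.9% lower, and of shorter ones 16.8% and 48.8%. The 4 genes with a site have longest transcripts of 4890 to 9507 nucleotides. Ncl, Polr1a and Tfrc lost their calls once a trend on length and GC content was removed. Sites and length were not tested apart.

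The nucleolar genes did not move together. Of the 30 genes 9 were higher in del (30%, against 32.5% of all genes tested) and 6 were lower (20%, against 32.6%), by edgeR's quasi-likelihood test at an adjusted p of 0.05. The other 15 were not called, and both shares lie below those of all genes. The median log2 fold change (del over fl) was 0.040, beside -0.0035 over all genes tested. Del and fl values did not overlap for 18 of 30 genes (60%), against 69.9% of all genes. The genes higher in del were Utp20, Ddx21, Tcof1, Polr1a, Mybbp1a, Ncl, Nolc1, Tfrc and Rrp1b, and those lower were Mrto4, Nhp2, Noc4l, Nop16, Pes1 and Fbl. Leaving out 1 library gave 8 to 11 genes higher and 2 to 8 lower. The 6 lower genes became 2 without fl replicate 2 and 3 without fl replicate 3, and 12 with upper-quartile scaling, which moves the median of all genes by -0.13. That scaling added Npm1, Apex1, Ipo4, Pprc1, Nop2 and Bop1. Of the 15 called genes 7 were called in all 14 alternative fits, namely Tcof1, Mybbp1a, Nolc1, Utp20, Ddx21, Nhp2 and Mrto4.

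**Figure D1:**
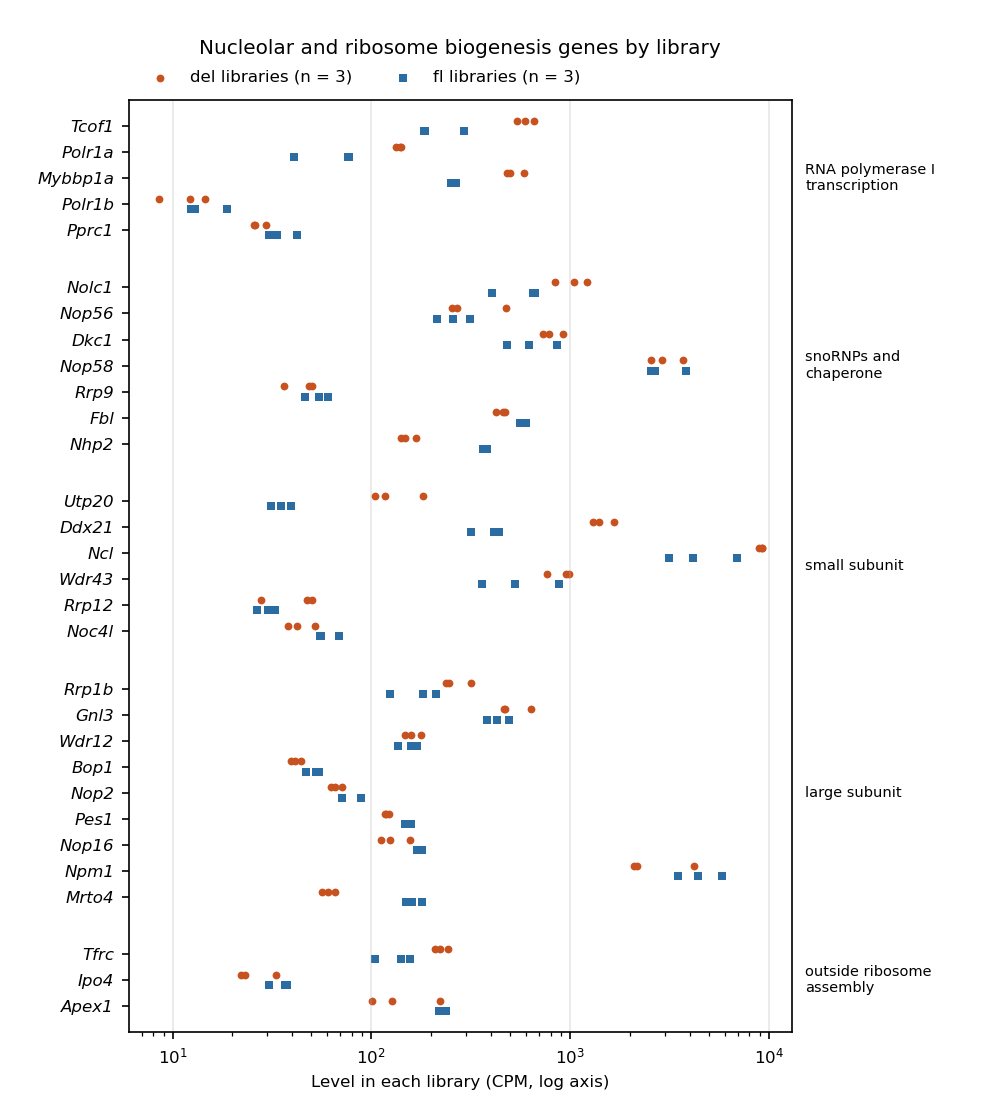
Level of each of the 30 genes in every library, as CPM on a log axis, with del libraries as circles above fl libraries as squares and genes ordered by role. The Ddx21 values, 1311 to 1657 CPM in del and 319 to 438 CPM in fl, lie far apart, while those of Nop58 and Wdr12 overlap.

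Taken as a sum, the 30 genes held 2.30%, 2.36% and 2.49% of the counts in del replicates 1 to 3 and 1.99%, 1.88% and 1.496% in fl replicates 1 to 3. All del libraries lay above all fl libraries in this share. Without Ncl the share was 1.36%, 1.47% and 1.54% in del and 1.36%, 1.46% and 1.17% in fl, and the groups overlapped.

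Genes listed under RNA polymerase I transcription divided. Pprc1 is counted here, though it is a coactivator and not a known factor of this polymerase. Of 5 genes 3 were higher in del (60%, against 32.5% of all genes tested), while the enzyme's subunit gene Polr1b and the coactivator gene Pprc1 were not called. Tcof1, which encodes treacle, a nucleolar protein that promotes transcription of ribosomal DNA, had 543, 656 and 592 CPM in del and 292, 185 and 187 CPM in fl. The lowest del library was well above the highest fl library, and the log2 fold change was 1.43 ± 0.20 (adjusted p = 0.000236). Polr1a (gene number 20019, chromosome 6, 71909053 to 71979435), the largest subunit of the polymerase, had 133, 139.7 and 142 CPM in del and 77.2, 76.7 and 40.8 CPM in fl. Del libraries were close to each other and above all fl libraries, among which fl replicate 3 was low (log2 fold change 1.09 ± 0.23, adjusted p = 0.00246).

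Mybbp1a (gene number 18432, chromosome 11, 72441327 to 72451770), whose nucleolar protein is known to restrain RNA polymerase I and to take part in precursor processing, was at 502, 585 and 484 CPM in del and 263, 253 and 268 CPM in fl. The groups stood apart, with a coefficient of variation of 2.94% in fl (log2 fold change 1.00 ± 0.14, adjusted p = 0.000205). Polr1b, the second largest subunit of the enzyme, averaged 11.7 ± 3.003 CPM in del and 14.7 ± 3.52 CPM in fl, with overlapping groups (log2 fold change -0.27 ± 0.24, adjusted p = 0.331). Pprc1, a coactivator related to PGC-1 that MYC is known to induce, averaged 27.1 ± 2.103 CPM in del and 35.3 ± 6.02 CPM in fl. Its del libraries were all below its fl libraries, but it missed the threshold (log2 fold change -0.38 ± 0.16, adjusted p = 0.0682). It passed without fl replicate 1, with upper-quartile scaling (adjusted p = 0.0264) and with no count filter (0.0474). It also passed once a trend on transcript length and GC content was removed (0.0220). Adjusted p ran from 0.0220 to 0.235 in the 14 alternatives.

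Of 7 snoRNP genes 1 was higher (14.3%, against 32.5% of all genes tested) and 2 were lower (28.6%, against 32.6%). Nhp2 (gene number 52530, chromosome 11, 51619773 to 51623718), a core protein of the box H/ACA snoRNPs that guide pseudouridylation, was at 168, 141 and 149 CPM in del and 370.0, 364 and 384 CPM in fl. All del libraries lay far below all fl libraries (log2 fold change -1.29 ± 0.14, adjusted p = 4.20e-05). Dkc1, the pseudouridine synthase of the same particles, averaged 811 ± 98.5 CPM in del and 658 ± 192 CPM in fl. It was not called (log2 fold change 0.30 ± 0.21, adjusted p = 0.234), but it passed without fl replicate 1, at 0.54 (adjusted p 0.0213 to 0.590 over the alternatives).

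Box C/D snoRNPs, which guide methylation of the ribose, showed smaller differences. Fbl, the methyltransferase fibrillarin, averaged 453 ± 23.7 CPM in del and 576 ± 19.5 CPM in fl, with no overlap (log2 fold change -0.35 ± 0.13, adjusted p = 0.0362). This call was lost without any one of del replicates 1, 2 and 3 and fl replicates 2 and 3, at fold changes of -0.38 to -0.31 and adjusted p of 0.0403 to 0.0961 over all leave-one-out fits. It was also lost in libraries thinned to 2121796 counts, at -0.32 (adjusted p = 0.0644). Nop58 (gene number 55989, chromosome 1, 59684961 to 59711510), a scaffold protein of these particles, had 2890, 3719 and 2559 CPM in del and 3837, 2670 and 2555 CPM in fl. The groups overlapped throughout (log2 fold change 0.017 ± 0.20, adjusted p = 0.947), and the sign turned under 6 of the alternatives.

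Nop56, the partner of Nop58, averaged 335 ± 124 CPM in del and 262 ± 50.3 CPM in fl (log2 fold change 0.35 ± 0.26, adjusted p = 0.252). Its del replicate 3 stood at 478 CPM, against 255 and 271 CPM in del replicates 1 and 2. Rrp9, a protein particular to the snoRNP of small subunit processing, averaged 45.2 ± 7.64 CPM in del and 53.8 ± 7.14 CPM in fl (log2 fold change -0.24 ± 0.17, adjusted p = 0.240). Nolc1, a chaperone of snoRNPs that shuttles between nucleolus and Cajal bodies, rose. It averaged 1035 ± 193 CPM in del and 575 ± 148 CPM in fl, with no overlap (log2 fold change 0.85 ± 0.22, adjusted p = 0.00750).

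Of 6 small subunit genes 3 were higher (50%, against 32.5% of all genes tested) and 1 was lower (16.7%, against 32.6%), and the largest rises of the 30 genes were among them. Utp20 (gene number 70683, chromosome 10, 88746607 to 88826814), a large scaffold of the small subunit processome, had 117, 104 and 182 CPM in del and 35.3, 39.6 and 31.4 CPM in fl. Every del library lay above every fl library, and the fold was 3.80 (log2 fold change 1.93 ± 0.22, adjusted p = 6.27e-05). Ddx21 (gene number 56200, chromosome 10, 62580247 to 62602298), an RNA helicase that links RNA polymerase I transcription to processing, had 1311, 1657 and 1401 CPM in del and 412, 438 and 319 CPM in fl. The groups were again far apart, by 3.74-fold (log2 fold change 1.90 ± 0.17, adjusted p = 1.56e-05).

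Ncl (gene number 17975, chromosome 1, 86344719 to 86359455) encodes nucleolin, an abundant nucleolar RNA-binding protein. It was at 9248, 8990 and 9215 CPM in del and 6953, 4186 and 3140 CPM in fl. Del libraries agreed within a coefficient of variation of 1.53%, while the fl libraries spread over 41.4%, and no values overlapped (log2 fold change 0.94 ± 0.25, adjusted p = 0.00952). Wdr43 and Rrp12, both needed for small subunit maturation in yeast and human cells, were not called. Wdr43 averaged 905 ± 121.5 CPM in del and 591 ± 265 CPM in fl (log2 fold change 0.61 ± 0.29, adjusted p = 0.0902) and passed without fl replicate 1, at 1.01. Rrp12 averaged 41.9 ± 12.1 CPM in del and 29.95 ± 3.13 CPM in fl (log2 fold change 0.51 ± 0.21, adjusted p = 0.0557). It passed without del replicate 2, at 0.71, and with RLE scaling factors, at 0.52 (adjusted p = 0.0490). Over the alternatives the adjusted p ran from 0.00196 to 0.235 for Wdr43 and from 0.00452 to 0.247 for Rrp12.

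Noc4l, a nucleolar factor of small subunit assembly, fell. It averaged 44.1 ± 7.204 CPM in del and 59.7 ± 7.59 CPM in fl, without overlap (log2 fold change -0.45 ± 0.16, adjusted p = 0.0357). The call was lost without del replicate 1 or 3 or fl replicate 2 or 3 (adjusted p 0.0167 to 0.124 over the leave-one-out fits). It was also lost in libraries thinned to 2121796 counts, at -0.40 (adjusted p = 0.0818).

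**Figure D2:**
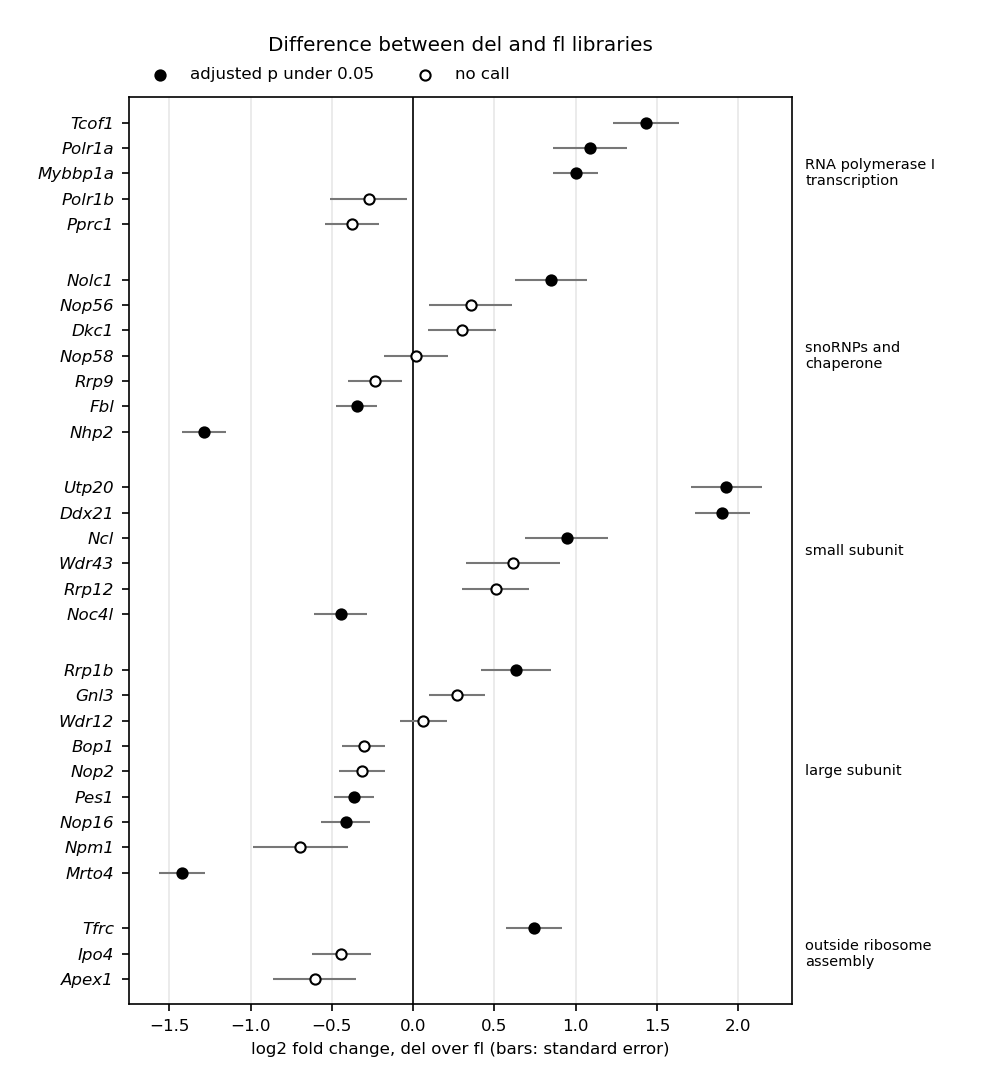
Log2 fold change of each of the 30 genes (del over fl) with its standard error, ordered by role, with filled points for genes past the adjusted p of 0.05. Values run from -1.42 for Mrto4 to 1.93 for Utp20, and each of the 4 groups listed under ribosome synthesis holds points on both sides of 0.

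Of 9 large subunit factors 3 were lower (33.3%, against 32.6% of all genes tested) and 1 was higher (11.1%, against 32.5%), with a median log2 fold change of -0.32. Mrto4 (gene number 69902, chromosome 4, 139347440 to 139352576), whose yeast counterpart holds the place of the ribosomal stalk during assembly, was at 65.6, 60.6 and 56.5 CPM in del and 181, 149 and 160.3 CPM in fl. No del library came near the fl range (log2 fold change -1.42 ± 0.14, adjusted p = 2.93e-05). Nop16 averaged 131 ± 22.8 CPM in del and 175 ± 5.19 CPM in fl (log2 fold change -0.42 ± 0.15, adjusted p = 0.0367). Its call was lost without del replicate 2 or 3 or any one fl library, with adjusted p of 0.0109 to 0.115 over the leave-one-out fits.

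The PeBoW complex of Pes1, Bop1 and Wdr12 is required for large subunit maturation. Pes1 fell to 119.6 ± 3.003 CPM in del, against 154 ± 5.31 CPM in fl (log2 fold change -0.37 ± 0.12, adjusted p = 0.0247), a call lost without del replicate 2, fl replicate 2 or fl replicate 3 (adjusted p 0.0319 to 0.0815 over the leave-one-out fits). Bop1 averaged 41.6 ± 2.42 CPM in del and 51.5 ± 4.27 CPM in fl, without overlap but above the threshold (log2 fold change -0.30 ± 0.13, adjusted p = 0.0705). It passed with upper-quartile scaling (adjusted p 0.0239 to 0.553 over the alternatives). Wdr12 averaged 162 ± 15.7 CPM in del and 155 ± 17.05 CPM in fl (log2 fold change 0.063 ± 0.14, adjusted p = 0.718).

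Npm1 (gene number 18148, chromosome 11, 33152498 to 33164142) encodes nucleophosmin, a nucleolar chaperone. It had 2167, 2098 and 4205 CPM in del and 4418, 5821 and 3479 CPM in fl. Del replicates 1 and 2 lay below every fl library, and del replicate 3 lay within the fl range. The gene missed the threshold (log2 fold change -0.70 ± 0.29, adjusted p = 0.0618). It passed without del replicate 3 (log2 fold change -1.10) or fl replicate 3 (-0.85), and with upper-quartile scaling (-0.83). Its adjusted p ran from 0.00233 to 0.218 over the alternatives. Del replicate 3 was also the highest del library for Nop56 and Gnl3.

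Rrp1b, a nucleolar protein of ribosomal RNA processing, averaged 267 ± 45.3 CPM in del and 172.5 ± 44.5 CPM in fl (log2 fold change 0.63 ± 0.21, adjusted p = 0.0259). This rise was lost without del replicate 3, fl replicate 2 or fl replicate 3 (adjusted p 0.0107 to 0.0853 over the leave-one-out fits). Nop2, a methyltransferase of the large ribosomal RNA, averaged 66.2 ± 4.22 CPM in del and 82.6 ± 9.97 CPM in fl (adjusted p = 0.0764). It passed without fl replicate 1 (log2 fold change -0.42, against -0.32 with all libraries) and with upper-quartile scaling (-0.45). Its adjusted p ran from 0.0248 to 0.862 over the alternatives. Gnl3, the GTPase nucleostemin, averaged 524 ± 98.0 CPM in del and 435 ± 55.3 CPM in fl (log2 fold change 0.27 ± 0.17, adjusted p = 0.197).

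Of the 3 genes grouped outside ribosome assembly, Tfrc rose. It encodes the transferrin receptor of iron uptake, a direct MYC target, and averaged 224.5 ± 17.95 CPM in del and 134 ± 26.95 CPM in fl, without overlap (log2 fold change 0.74 ± 0.17, adjusted p = 0.00409). Apex1, the endonuclease of base excision repair, averaged 150.1 ± 63.2 CPM in del and 229 ± 9.90 CPM in fl. Its del libraries spread over 42.1% of their mean, and it missed the threshold (log2 fold change -0.61 ± 0.26, adjusted p = 0.0641) but passed without del replicate 1, at -1.01 (adjusted p 0.00141 to 0.876 over the alternatives). Ipo4, an importin that carries proteins into the nucleus, averaged 26.2 ± 6.08 CPM in del and 34.95 ± 3.87 CPM in fl (log2 fold change -0.44 ± 0.18, adjusted p = 0.0559) and passed without del replicate 2 or fl replicate 1 (adjusted p 0.0121 to 0.165 over the alternatives).

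The direction of change followed transcript length within the list. The 9 genes higher in del have longest annotated transcripts of 3634 to 9216 nucleotides, and the 6 lower ones of 1042 to 2923 nucleotides. Across the 30 genes Spearman's rho between length and log2 fold change was 0.70, and across 10220 tested genes with a length it was 0.41. Genes share their libraries and are not independent replicates, and the longest transcript need not be the expressed one. Ncl was taken at 8202 nucleotides, and its longest annotated 3′ UTR, of 5901 nucleotides, lies inside the gene span. If a shorter Ncl transcript is the expressed one, the higher and lower genes may not separate by length. Which one is expressed was not tested, and the fit without the trend used the same length. At a division of 3000 nucleotides chosen after the values were seen, 9 of 17 longer genes were higher and 0 lower by edgeR and by DESeq2 (10 and 2 at an unadjusted p under 0.05). Of 13 shorter genes 0 were higher by either tool and 6 were lower (0 and 9 at an unadjusted p under 0.05). Of all longer tested genes 43.8% were higher and 20.9% lower, and of all shorter ones 16.8% and 48.8%.

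In a fit that took the trend of all genes on length and GC content out, 6 of the 30 genes were higher and 5 lower in del. Tcof1, Mybbp1a and Nolc1 were still called higher, at 1.44, 0.90 and 0.82 on the log2 scale. Utp20 stood at 1.201 and Ddx21 at 1.56, against 1.93 and 1.90 before. Mrto4 and Nhp2 were still called lower, at -0.64 and -0.44, against -1.42 and -1.29 before. Polr1a, Ncl, Tfrc and Rrp1b lost their calls, at log2 fold changes of 0.45, 0.16, 0.20 and 0.45 (adjusted p 0.115, 0.616, 0.328 and 0.0956), as did Fbl, Noc4l, Pes1 and Nop16, the last at 0.0049 with its sign turned. Over all alternatives the adjusted p ran up to those values for these first 4 genes, from 8.95e-05 for Polr1a, 0.000104 for Ncl, 0.000431 for Tfrc and 0.0107 for Rrp1b. Nop58 and Wdr12, whose longest transcripts have 9507 and 10012 nucleotides, were called lower in this fit, at -0.91 and -0.92, and Pprc1 at -0.52. Rrp9 was called higher at 0.49.

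**Figure D3:**
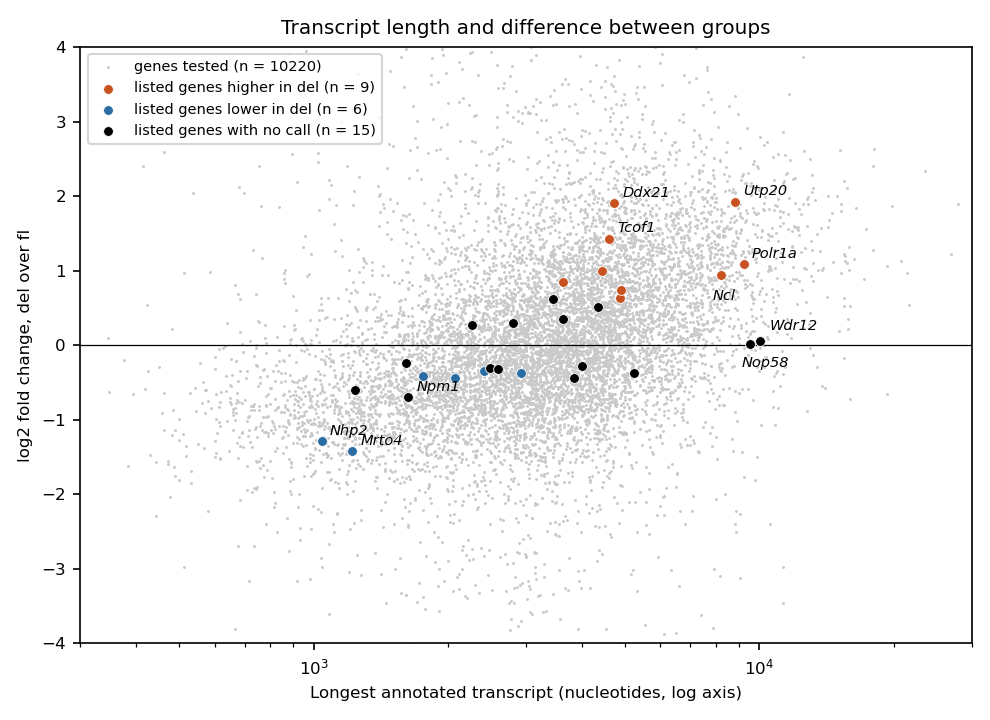
Log2 fold change (del over fl) against the length of the longest annotated transcript on a log axis, for all tested genes in grey and the 30 listed genes in colour. The axis stops at 4 on either side, which leaves out 530 genes, and 32 genes fall outside the length axis. By these lengths, which need not be those expressed, the 9 higher genes all lie to the right of the 6 lower ones.

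Ratios of partner transcripts within a library do not depend on scaling factors, but the trend on transcript length is not taken out of them. For 6 pairs chosen after the values were seen, an exact two-sided permutation test of 3 against 3 libraries cannot give a p below 0.10. Nhp2 over Dkc1 was 0.214, 0.153 and 0.204 in del and 0.428, 0.582 and 0.794 in fl. The del ratios were all below the fl ratios, with a mean log2 difference of -1.63 (exact permutation p = 0.10, adjusted over 6 pairs 0.20). Polr1b over Polr1a was 0.109, 0.0610 and 0.0859 in del and 0.168, 0.162 and 0.460 in fl (exact permutation p = 0.10, adjusted 0.20). Both fl replicates 1 and 2 lay above del, and fl replicate 3 was higher still.

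Within the PeBoW complex, Wdr12 over Pes1 was 1.203, 1.34 and 1.53 in del and 1.06, 1.08 and 0.876 in fl, without overlap (exact permutation p = 0.10, adjusted 0.20). Bop1 over Pes1 was 0.360, 0.348 and 0.336 in del and 0.315, 0.335 and 0.351 in fl, so these values overlapped (exact permutation p = 0.40, adjusted 0.48). Nop58 over Nop56 (exact permutation p = 0.60, adjusted 0.60) and Fbl over Nop58 (exact permutation p = 0.30, adjusted 0.45) overlapped as well.

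**Figure D4:**
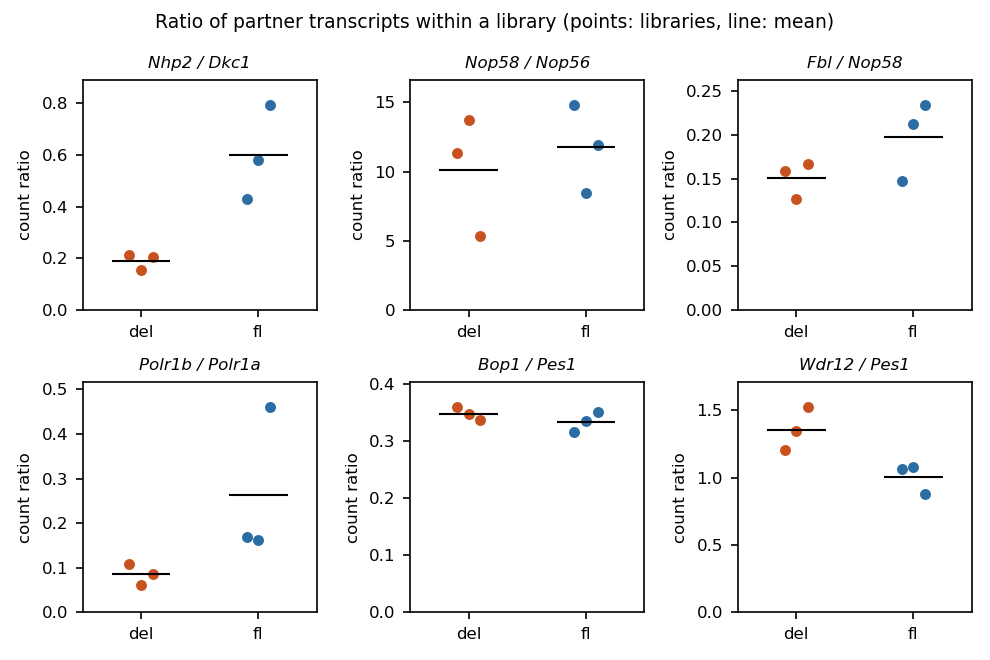
Ratio of the counts of partner genes in each library, with del left of fl, points for libraries and a line at the mean of a group. Nhp2 over Dkc1, Polr1b over Polr1a and Wdr12 over Pes1 do not overlap between the groups, while Bop1 over Pes1 stays between 0.315 and 0.360 in all libraries.

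Other genes of ribosome biogenesis were divided as well. Of 125 further genes, all tested, 29 were higher in del (23.2%, against 32.5% of all genes), 42 were lower (33.6%, against 32.6%) and 54 were not called, with a median log2 fold change of -0.080. Other small subunit factors counted 11 higher (24.4%) and 15 lower (33.3%) of 45, and other large subunit factors 13 higher (28.3%) and 11 lower (23.9%) of 46. Further RNA polymerase I factors counted 2 higher (15.4%) and 4 lower (30.8%) of 13. Other snoRNP proteins and their assembly factors counted 2 higher (20%) and 5 lower (50%) of 10, and subunits and cofactors of the RNA exosome, which trims the precursor, 1 higher (9.09%) and 7 lower (63.6%) of 11.

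Among these genes of at least 20 CPM the largest rises were all of large subunit factors. Mdn1, a giant ATPase that strips factors from the maturing large subunit, averaged 444 ± 50.3 CPM in del and 84.3 ± 21.0 CPM in fl (log2 fold change 2.40 ± 0.21, adjusted p = 1.29e-05). Nol9, a polynucleotide kinase of precursor processing, stood at 2.24 ± 0.20, Pelp1 at 2.16 ± 0.31 and the helicase gene Ddx24 at 1.69 ± 0.18 on the log2 scale. The largest falls were of Znrd1, a small subunit of RNA polymerase I listed as Polr1h, and of Nip7, Wdr74 and Polr1c. Znrd1 averaged 18.4 ± 1.75 CPM in del and 69.5 ± 2.80 CPM in fl (log2 fold change -1.93 ± 0.14, adjusted p = 4.79e-06). Nip7 and Wdr74, both of large subunit assembly, stood at -1.78 ± 0.15 and -1.60 ± 0.14. Polr1c, a subunit shared by RNA polymerases I and III, stood at -1.49 ± 0.14.

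**Figure D5:**
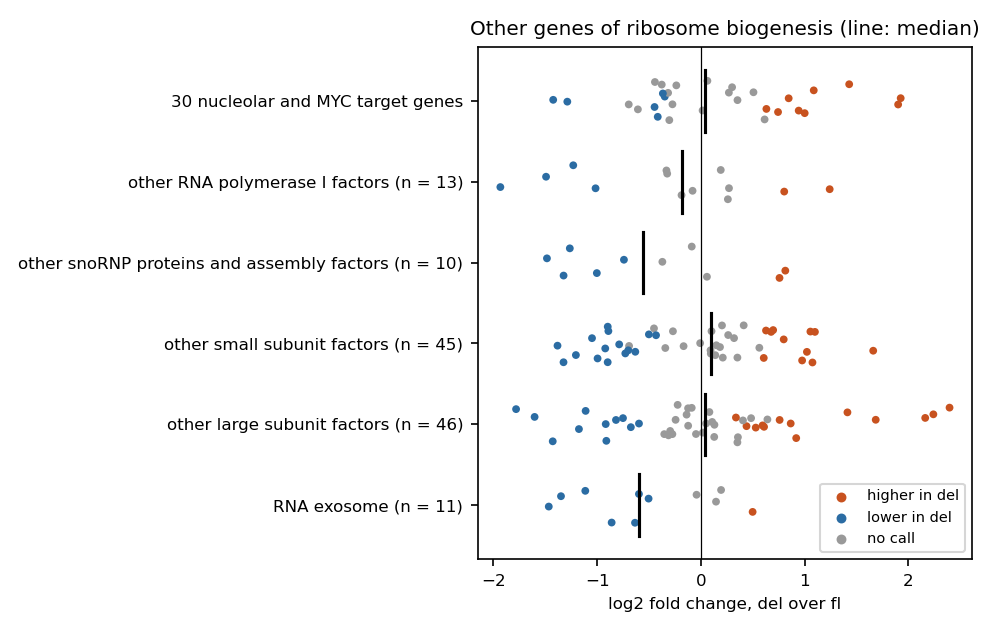
Log2 fold change (del over fl) of the 30 genes and of 125 other genes of ribosome biogenesis by step, with calls in colour and a line at the median of each list. Every list holds genes called on both sides, and the medians run from -0.60 for the RNA exosome to 0.096 for other small subunit factors.

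Of 18 MYC targets outside the nucleolus 1 was higher in del (5.56%, against 32.5% of all genes tested) and 14 were lower (77.8%, against 32.6% of all genes tested and 48.8% of those under 3000 nucleotides), with no test of the difference and with a median log2 fold change of -0.91. Their longest transcripts have a median of 2331 nucleotides, against 3630.5 for the 30 genes. Cad, the first enzyme of pyrimidine synthesis, was the 1 that rose (log2 fold change 0.51 ± 0.15, adjusted p = 0.0135), and its longest transcript has 7137 nucleotides. It lost the call with upper-quartile scaling and once the trend on length and GC content was removed (adjusted p 0.0125 to 0.242 over the alternatives). Ran, the GTPase of nuclear transport, averaged 617 ± 77.4 CPM in del and 1295 ± 45.9 CPM in fl (log2 fold change -1.07 ± 0.14, adjusted p = 0.000143). Both were singled out after their values were seen.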

How the data were processed

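First-strand synthesis used barcoded oligo-dT primers and gave strand-specific 3′ libraries after PCR, per the labels' protocols. The deposited table holds raw read counts per gene. STAR, HTSeq and mm10 are named in the submitters' processing notes, without versions, settings or annotation (not given in the sources used here). Symbols and promoter and microRNA sequences came from RefSeq (GRCm38.p6), matching 23969 of 24052 gene numbers, and transcript lengths, GC content and 3′ UTRs of at least 50 nucleotides from GENCODE M21 (GRCm38).

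Counts were tested with edgeR 4.0.16 under R 4.3.3 (filterByExpr, TMM, robust quasi-likelihood F test, group as the only term), with Benjamini-Hochberg adjustment over all genes tested. Standard errors come from the F statistic. DESeq2 1.42.0, other factors, filters, thinning to 2121796 counts, a replicate block, removal of the length and GC trend and leaving out each library were alternatives. Within each group, libraries differed beyond sampling noise (chi-square per degree of freedom at least 7.35). Fl replicate 1 differed most, at 27.5 from fl replicate 2 and 30.5 from fl replicate 3, while all other pairs were at 7.35 to 11.95.

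The genes and lists were chosen with earlier results of these data known. Every library is given for called genes past 1 on the log2 scale and for the 4 genes of highest mean CPM, and 4 other genes of the pathway are named in each direction (at least 20 CPM). Snu13 of the pathway was named in addition, after its values were seen, and is given by group means. Precision covers counting and library spread only, since PCR reads are not independent molecules.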

Additional observations from a re-analysis of the deposited data

How the results depend on the processing

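For the 30 genes over 14 alternatives, 350 of 420 gene and setting combinations kept direction and side of the threshold, 32 lost a call, 24 gained one and 14 turned sign. The count of genes lower in del, 6 as reported, was 12 with upper-quartile factors and 2 to 8 when 1 library was left out (2 without fl replicate 2, 3 without fl replicate 3). Nop58, at 0.017, was -0.033 with no count filter, -0.10 with upper-quartile factors, -0.91 with the length and GC trend removed, and -0.15 to 0.22 when 1 library was left out (negative without del replicate 2, fl replicate 2 or fl replicate 3). Wdr12, at 0.063, was -0.064 with upper-quartile factors, -0.92 with the trend removed, and -0.017 to 0.14 when 1 library was left out (negative without del replicate 3 or fl replicate 3). With the trend removed, Rrp9 was 0.49, Bop1 0.097, Nop16 0.0049, Apex1 0.052 and Myc 0.16. The causes were not tested. The fl libraries were deeper by 2.65 times, and thinned to 2121796 counts 9 genes were higher and 4 lower. Replicate numbers gave no sign of pairing (correlations of deviations 0.083, -0.039 and -0.020 between same-numbered libraries, and not every library correlated best with its own number). With the replicate block, 11 of the 30 genes were higher and 4 lower. It ended the calls of Fbl, Noc4l and Pes1 (adjusted p 0.0809, 0.0563 and 0.0603) and of Max (0.0755), and added Wdr43, Rrp12 and Apex1 (0.0132, 0.0437 and 0.0310).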
